A study of Mus musculus with 45 samples.

Results

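The genes described here encode 10 secreted proteoglycans of the extracellular matrix, 7 of them small leucine-rich proteoglycans (Dcn, Bgn, Lum, Fmod, Ogn, Aspn and Prelp) and 3 of them large (Vcan, Hspg2 and Acan). They were chosen by name, as the rows whose gene symbol equals a member, and all 10 were found among the 23284 genes listed. Small leucine-rich proteoglycans bind collagen fibrils and set how the fibrils assemble and space, and several of them also hold growth factors such as TGF-beta in the matrix. Versican and aggrecan are hyaluronan-binding proteoglycans that swell the matrix, versican in the endocardial cushions and jelly of the embryonic heart and aggrecan mainly in cartilage. Perlecan, the product of Hspg2, carries heparan sulfate and is a component of basement membranes, including those around cardiomyocytes and vessels.

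The study followed the cardiac transcription factor Gata4, histone marks and expression through heart development and disease in the mouse. It holds 45 samples, of which 6 poly(A) RNA-seq libraries of heart tissue were used. The other 39, chromatin immunoprecipitation and input libraries, were not analysed here. Adult heart has 2 libraries, and heart at E12.5 (an embryonic day), E12.5 heart labelled Gata4 KO, sham-operated heart and banded heart have 1 each.

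Banding constricts a large artery so that the heart pumps against more pressure, and a sham operation omits the constriction; the labels name neither the vessel, the time after the operation nor the age of the operated animals. The protocol text names the alleles Gata4fbio (a tagged Gata4), Rosa26BirA (a biotin ligase), Gata4flox and cTNTcre for the series as a whole and does not tie them to single libraries. Cre under the cardiac troponin T promoter acts in cardiomyocytes, so other cells of such a heart would keep Gata4. RNA was pooled for each library, and the labels do not state separate animals or pools for the adult pair, so limma's p-values describe the variation between these libraries, which could be technical.

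The libraries held 12086929 to 21056784 mapped reads. Summed levels of 8 cardiomyocyte markers were 20000 to 48600 FPKM (read count divided by transcript length and by the mapped reads of the library) in the 6 libraries, with none of the 8 at 0. Gata4 itself was at 5.93 on the log2(FPKM + 1) scale in E12.5 with 4290 reads and at 6.13 in the library labelled Gata4 KO with 4159 reads, so its level does not set that library apart from E12.5. Sham and banding stood apart from the other 4 in that 55.6% and 58.0% of their mapped reads fell on listed genes, against 75.9% to 83.9%. The ribosomal RNA precursor Rn45s was at 12.94 and 12.96 there, against 6.21 to 8.94 elsewhere. Levels below are log2(FPKM + 1), which corrects for transcript length, so levels of different genes can be set side by side.

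Several members lie next to each other in the genome. In the gene order of RefSeq's GRCm38.p6 annotation, Dcn and Lum are neighbours on chromosome 10, Prelp and Fmod on chromosome 1, and Aspn and Ogn on chromosome 13 with only Omd, which encodes osteomodulin, between them. Vcan, also on chromosome 13, lies beside Hapln1, which encodes a link protein that fastens versican to hyaluronan, and Acan on chromosome 7 lies beside Hapln3, another link protein gene. The spans of Aspn and Ogn overlap the gene Cenpp, and since strand use in the counting is not stated, reads there could be shared. Cenpp was at 3.38 in E12.5 and at 1.92 and 1.79 in adult, the reverse of the order of Aspn and Ogn. It was at 0.39 in sham and 1.39 in banding, so lower in sham than in adult and banding, as Aspn and Ogn were. Whether reads were shared was not tested.

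The 250 bases before the start of 8 of the 10 genes were matched in RefSeq's GRCm38.p6 promoter table, and Dcn and Lum had no entry. The neighbouring pairs are shown because Prelp and Fmod differed in opposite directions with age and Ogn and Aspn in the same direction, and Vcan and Acan are shown as the hyaluronan-binding members. Capitals mark the letters TGATAA or AGATAA or TGATAG or AGATAG, the core that GATA factors recognise, and TATAAA, each searched on both strands; the GATA letters can overlap TATAAA by a few bases, which happened in none of these windows. Windows are given 5′ to 3′ on the strand of the gene, at chr1:133921402-133921651 (minus strand) for Prelp, chr1:134037004-134037253 (plus) for Fmod, chr13:49607765-49608014 (plus) for Ogn, chr13:49544193-49544442 (plus) for Aspn, chr13:89742513-89742762 (minus) for Vcan and chr7:79052976-79053225 (plus) for Acan.
Prelp: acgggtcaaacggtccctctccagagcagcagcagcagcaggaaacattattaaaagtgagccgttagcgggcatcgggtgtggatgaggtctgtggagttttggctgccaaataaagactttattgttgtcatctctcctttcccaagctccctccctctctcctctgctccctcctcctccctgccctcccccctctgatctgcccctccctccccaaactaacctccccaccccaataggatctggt
Fmod: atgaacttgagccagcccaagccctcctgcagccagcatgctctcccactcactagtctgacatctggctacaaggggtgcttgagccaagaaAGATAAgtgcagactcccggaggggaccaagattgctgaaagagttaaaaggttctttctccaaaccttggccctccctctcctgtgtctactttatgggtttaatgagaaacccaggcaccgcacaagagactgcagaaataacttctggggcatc
Ogn: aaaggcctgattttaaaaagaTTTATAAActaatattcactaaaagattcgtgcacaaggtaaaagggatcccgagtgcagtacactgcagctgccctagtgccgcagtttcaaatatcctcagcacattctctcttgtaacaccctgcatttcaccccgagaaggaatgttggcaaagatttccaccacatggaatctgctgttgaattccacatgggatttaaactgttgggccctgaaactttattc
Aspn: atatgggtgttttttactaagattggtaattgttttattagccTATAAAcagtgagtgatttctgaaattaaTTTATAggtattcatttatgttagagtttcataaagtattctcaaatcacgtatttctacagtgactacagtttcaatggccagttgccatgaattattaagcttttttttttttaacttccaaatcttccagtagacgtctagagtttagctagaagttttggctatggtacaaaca
Vcan: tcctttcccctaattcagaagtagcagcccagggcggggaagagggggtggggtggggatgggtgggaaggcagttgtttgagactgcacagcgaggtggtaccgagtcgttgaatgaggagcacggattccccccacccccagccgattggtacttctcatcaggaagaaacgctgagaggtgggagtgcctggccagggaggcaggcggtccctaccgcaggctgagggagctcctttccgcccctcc
Acan: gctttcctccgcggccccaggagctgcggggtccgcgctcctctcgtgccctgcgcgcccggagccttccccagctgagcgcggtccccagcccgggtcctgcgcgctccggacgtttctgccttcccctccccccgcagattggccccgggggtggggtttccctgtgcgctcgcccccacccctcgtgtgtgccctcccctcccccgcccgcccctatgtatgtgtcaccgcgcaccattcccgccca

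Among the 8 windows, GATA letters occurred once, in Fmod, where they start at position -157 from the gene's start. Of all 32851 windows of the same length in that table, 26.5% hold at least 1 such match. TATAAA letters were found in Ogn as 2 overlapping matches on opposite strands, at -229 and -227, and in Aspn at -207 and -178, against 12.4% of all windows. The windows differ more in their content of CG dinucleotides. Acan held 26 and Hspg2 20, Vcan 10, Bgn 7, Prelp 5, Ogn 4, and Aspn and Fmod 2 each, against a median of 6.0 over all windows. The GC content ran from 30.0% in Aspn to 74.4% in Acan, around a median of 52.4%. A match is a match of letters only, and nothing here measured binding at these windows.

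Levels were read first across the 6 libraries. Decorin, the product of Dcn, carries a single chondroitin or dermatan sulfate chain and binds collagen fibrils. Dcn was at 4.10 in E12.5 and 6.05 and 6.35 in adult, at 7.72 in sham and 8.98 in banding, and at 4.81 in the library labelled Gata4 KO. Biglycan, its closest relative, was at 5.41 in E12.5 and 6.29 and 6.42 in adult, at 6.12 in sham and 8.23 in banding, and at 6.62 in the library labelled Gata4 KO (Bgn). Banding was the highest and E12.5 the lowest library for both genes, but Dcn spanned 4.88 log2 units and Bgn 2.82. The order in between differed: the sham library exceeded adult for Dcn and fell just under it for Bgn. In banding, 99.7% of the genes above 0 had a lower FPKM than Dcn and 99.4% a lower one than Bgn.

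Asporin, encoded by Aspn, is a relative of decorin that binds collagen and TGF-beta. Aspn was at 0.31 in E12.5 and 3.21 and 3.55 in adult, at 2.22 in sham and 3.32 in banding, and at 0.52 in the library labelled Gata4 KO. Osteoglycin, also called mimecan, is a member without a sulfated chain in many tissues. Ogn was at 1.16 in E12.5 and 5.68 and 5.95 in adult, at 2.88 in sham and 3.65 in banding, and at 2.08 in the library labelled Gata4 KO. Aspn in banding lay between the adult libraries, whereas Ogn in banding lay more than 2 log2 units under both. The embryonic libraries were lowest for both genes, on 12 and 18 reads for Aspn and 66 and 146 for Ogn.

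Lumican, fibromodulin and PRELP form a branch of the family that carries keratan sulfate or, in PRELP, a basic domain that binds heparan sulfate. Lum was at 1.26 in E12.5 and 2.84 and 3.02 in adult, at 1.81 in sham and 3.33 in banding, and at 1.8 in the library labelled Gata4 KO, with sham and the library labelled Gata4 KO closer to each other than the adult pair. Prelp was at 0.13 in E12.5 and 3.68 and 3.85 in adult, at 2.88 in sham and 3.96 in banding, and at 0.17 in the library labelled Gata4 KO. The embryonic values of Prelp rest on 7 and 8 reads. Fmod had the opposite pattern, at 3.67 in E12.5 and 1.82 and 1.58 in adult, at 1.51 in sham and 1.68 in banding, and at 4.12 in the library labelled Gata4 KO. Banding lay between the adult libraries for Fmod, and sham was just under them.

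Vcan and Hspg2 were highest in the embryonic libraries, and Acan in 1 of them. Vcan was at 5.38 in E12.5 and 1.30 and 1.44 in adult, at 0.90 in sham and 2.00 in banding, and at 6.61 in the library labelled Gata4 KO, the widest span of the 10 at 5.71. Hspg2 had the narrowest span of the 9 genes that reached 1 FPKM in adult or E12.5, 1.67: it was at 5.86 in E12.5 and 4.69 and 4.77 in adult, at 5.0 in sham and 5.26 in banding, and at 6.36 in the library labelled Gata4 KO. Acan was close to 0 in every library but 1. It was at 0.10 and 0.09 in adult, 0.13 in E12.5, 0.05 in sham and 0.20 in banding on 3 to 15 reads, and at 1.01 on 132 reads in the library labelled Gata4 KO.

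**Figure D1:**
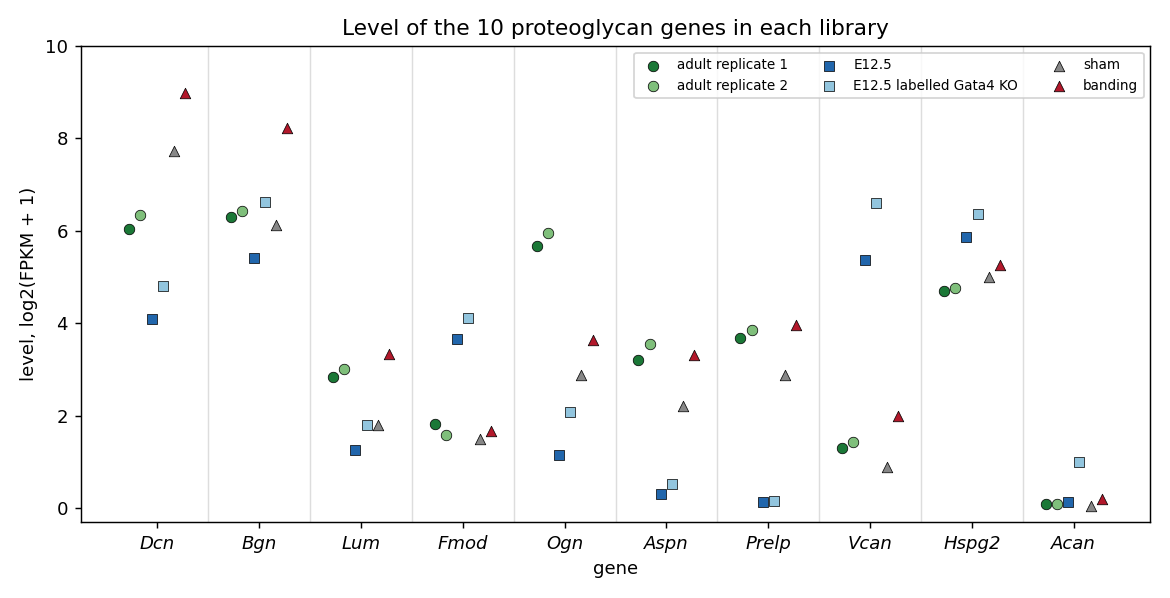
The level of each gene, as log2(FPKM + 1) on the vertical axis, is shown by 1 point per library (circles adult, squares E12.5 and E12.5 labelled Gata4 KO, triangles sham and banding). Fmod, Vcan and Hspg2 are higher in the embryonic libraries than in adult, and Ogn, Aspn and Prelp are far lower there.

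The first comparison asked how these genes differ between the embryonic and the adult heart. Ogn, Prelp, Aspn, Dcn, Lum and Bgn rose and Vcan, Fmod and Hspg2 fell from E12.5 to adult, by limma with Benjamini-Hochberg adjustment over 12658 genes. Over all genes tested, 23.4% were higher and 48.4% lower in adult, and the median difference was -0.51. The 6 members that rose are therefore set against a background that leans the other way, and the 3 that fell against a common direction. Acan was under the filter of 1 FPKM in at least 1 of the libraries fitted, and Aspn and Prelp passed it through the adult libraries alone. In FPKM scaled by the median of ratios, the median of all genes was -0.05, with 4131 genes higher and 4413 lower in place of 2965 and 6123, and with upper-quartile scaling -0.18, with 3766 and 4841. All 9 members kept their direction and their call under both scalings.

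Ogn had the largest rise of the members tested, 4.65 ± 0.16 (SE; limma adjusted p 0.00398), from 66 reads in E12.5 to 1614 and 1903 in adult. Prelp rose by 3.64 ± 0.14 (adjusted p 0.00417) and Aspn by 3.06 ± 0.22 (adjusted p 0.00695). These are differences on the log2(FPKM + 1) scale, which understates those of low genes: with a pseudocount of 0.1 FPKM the difference of Prelp was 6.04 and that of Aspn 4.79. Dcn rose by 2.10 ± 0.18 (adjusted p 0.00844) and Lum by 1.67 ± 0.15 (adjusted p 0.00931). Bgn, at 6.36 ± 0.10 in adult (SD, n = 2) against 5.41, rose the least, by 0.95 ± 0.10 (limma adjusted p 0.0108). That call was lost, at 0.34 and an adjusted p of 0.438, when the library labelled Gata4 KO was added as a second E12.5 library; over the other alternatives with a test the adjusted p of Bgn ran from 0.00353 to 0.034.

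Vcan fell by 4.01 on the log2 scale (SE 0.13; limma adjusted p 0.00398), from 10630 reads in E12.5 to 230 and 263 in adult. Fmod fell by 1.98 (SE 0.18; adjusted p 0.00897), so this member of the keratan sulfate branch differed in the direction opposite to its chromosomal neighbour Prelp. Hspg2, the basement membrane member, fell by 1.13 (SE 0.08; adjusted p 0.00681). It had the most FPKM of the 10 in E12.5, and in adult it came after Bgn, Dcn and Ogn. The FPKM ratio of Fmod to Prelp, which does not depend on scaling between libraries, was 127 in E12.5 (95% counting interval 61.4 to 318) and 0.213 and 0.148 in the adult libraries. Counting intervals here and below are exact and cover counting error only, since reads carry no molecular identifiers.

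The markers of other cells also differed with age. Of 10 fibroblast markers 4 were higher and 3 lower in adult, their summed level was 136 and 156 FPKM in adult and 107 in E12.5, and Dpt was at 0 in E12.5. All 7 epicardial markers fell, from a sum of 118 to 9.19 and 6.61 FPKM, and all 6 primitive red cell markers fell, with Hbb-y, Hba-x and Hbb-bh1 at 0 in both adult libraries. Of 8 smooth muscle and pericyte markers 5 were higher and 2 lower in adult, and of 6 cushion and valve markers tested 1 was higher and 3 lower. The sums of both lists went the other way. That of smooth muscle and pericyte markers was 548 FPKM in E12.5 against 377 and 394 in adult, and that of cushion and valve markers 26.2 against 39.0 and 45.7. Of 8 cardiomyocyte markers 7 were higher and none lower, and of 8 endothelial markers 3 were higher and 3 lower. Whether these move the proteoglycan values was not tested, and in bulk tissue fewer cells of a type and less RNA per cell cannot be told apart.

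**Figure D2:**
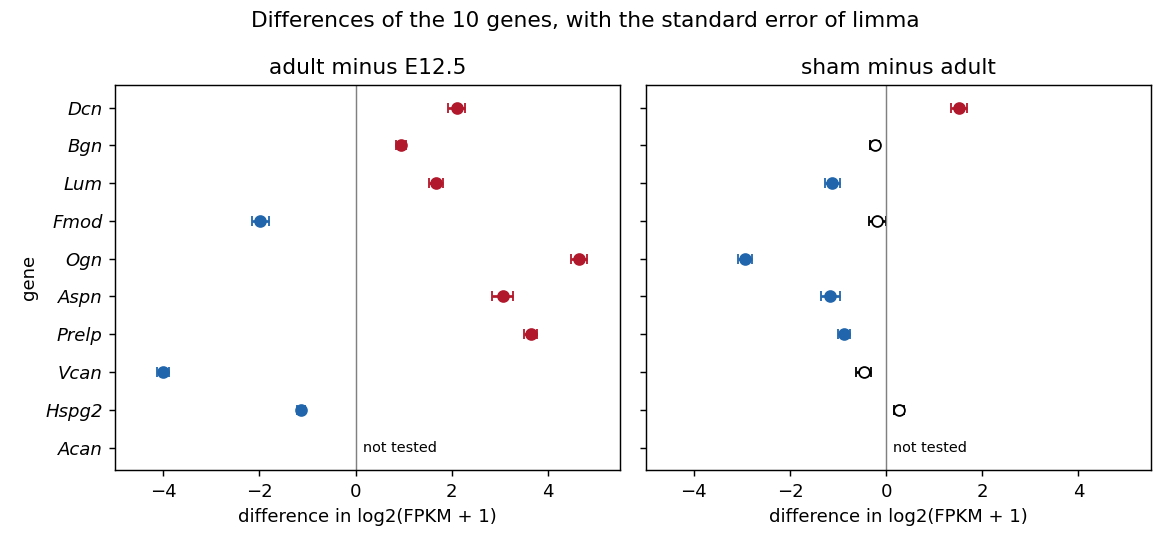
Points give the difference in log2(FPKM + 1) of each gene, adult minus E12.5 at left and sham minus adult at right, with the standard error from limma as bars. Red points passed an adjusted p of 0.05 upwards, blue ones downwards and open ones did not pass; Bgn and Fmod at right change sign under other scalings, and Ogn lies at 4.65 at left and at -2.93 at right.

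Sham against adult asked what the operated but unbanded heart looks like beside the unoperated one, and it shares the adult libraries with the comparison above. Of the 9 members tested, 1 rose and 4 fell in sham. Over the 11582 genes tested, 13.7% were higher and 44.8% lower, with a median of -0.44, close to the -0.47 of the members. Both shares and the median move with scaling: 3157 genes were higher and 3291 lower with median-of-ratios scaling, and 4179 and 2541 with upper-quartile scaling, against 1581 and 5191 as deposited, and the median became -0.01 and 0.21. The sham library had the lowest share of reads on listed genes and a high Rn45s, as given above.

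Dcn rose by 1.52 ± 0.16 (limma adjusted p 0.00623), against the common direction, and by 2.03 and 2.28 under the other scalings. Its adjusted p ran from 0.000194 to 0.0547 over the alternatives, the last with no filter on low values. Ogn fell by 2.93 (SE 0.15; adjusted p 0.00276) and held its call in each of 7 alternatives, with adjusted p of 2.76e-05 to 0.033. Lum fell by 1.12 (adjusted p 0.0107), Aspn by 1.16 (adjusted p 0.0164) and Prelp by 0.88 (adjusted p 0.0123). These 3 lost their calls under several alternatives, among them the addition of banding as a second operated library, with adjusted p of up to 0.518, 0.176 and 0.399. The values that did not pass were -0.24 for Bgn and -0.18 for Fmod, which turned positive under both other scalings, -0.47 for Vcan and 0.27 for Hspg2. Hspg2 passed under both other scalings, at 0.77 and 1.02, and Bgn passed as higher with upper-quartile scaling, at 0.52 (limma adjusted p 0.0193).

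Marker lists differed between sham and adult as well. Of 10 fibroblast markers 5 were higher and none lower in sham, with a sum of 205 FPKM against 136 and 156, and 6 and 7 were higher under the other scalings. Of 10 fibrillar collagen and fibril genes tested 7 were higher and 1 lower, and 8 and 1 under each other scaling. Smooth muscle and pericyte markers were lower for 7 of 8, with a sum of 127 FPKM against 377 and 394; under the other scalings 6 and 4 were lower and 1 higher. Of 8 cardiomyocyte markers 5 were lower, with a sum of 28900 against 48500 and 48600, while median-of-ratios scaling left 4 lower and upper-quartile scaling 2 lower and 2 higher. None of these markers was at 0 in sham or adult, and their part in the proteoglycan values was not tested.

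Dcn and Ogn thus stood in very different proportions in the unoperated and the operated hearts. The FPKM ratio of Dcn to Ogn was 1.30 and 1.33 in the adult libraries, with 95% counting intervals of 1.21 to 1.39 and 1.25 to 1.42. It was 32.9 in sham (28.6 to 38.2) and 43.7 in banding (39.6 to 48.3), and 13.1 in E12.5 (10.2 to 17.2). Dcn to Lum, neighbours on chromosome 10, stood at 11.6 in E12.5 and 10.6 and 11.4 in adult, at 83.7 in sham and 55.7 in banding, and at 10.9 in the library labelled Gata4 KO. Their ratio was thus nearly the same from embryo to adult while both genes rose. Age and handling of the operated animals cannot be told apart from the operation, since the labels do not give them. Nor can the higher Rn45s and the lower share of reads on listed genes in sham and banding, given above, be told apart from it.

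Banding against sham asked what pressure load does, with 1 library on each side and therefore no p-value. A gene was called by size where log2(FPKM + 1) differed by at least 1 and the higher library had at least 5 FPKM. Of the 7 members with 5 FPKM, 5 were higher in banding by this rule (Bgn, Lum, Dcn, Aspn and Prelp) and none lower. Over the 5108 genes with that level, 2.51% were higher and 0.998% lower. Lum and Aspn reached 5 FPKM in banding alone, so they could be called only as higher. The members' own values were higher in banding for all 10, with a median of 1.09. That of the 7 members with 5 FPKM was also 1.09, and that of all genes with 5 FPKM was 0.06. Between the 2 adult libraries the same rule called 0 of 7 members, 0.232% of 6460 genes higher and 0.248% lower in replicate 1. Banding and sham are alike in Rn45s and in the share of reads on listed genes, and no member changed sign under another scaling.

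Bgn differed the most among the 7, with 9987 reads in banding against 1974 in sham and a ratio of FPKM of 4.36 (95% counting interval 4.16 to 4.58). Lum followed at 3.61 (2.74 to 4.84) on 264 and 63 reads. Aspn stood at 2.45 (1.95 to 3.09), Dcn at 2.40 (2.32 to 2.48) and Prelp at 2.29 (1.99 to 2.64). Ogn, at 1.81 (1.53 to 2.16), and Hspg2, at 1.20 (1.16 to 1.25), did not reach the rule. Under 5 FPKM, Vcan had a ratio of 3.48 (2.87 to 4.25) on 525 and 130 reads, Acan 4.31 (1.22 to 23.2) on 15 and 3 reads, and Fmod 1.19 (0.85 to 1.66), whose interval spans no difference. So decorin and biglycan, the most abundant members, both stood higher, and biglycan by the larger ratio: Bgn to Dcn was 0.325 in sham and 0.59 in banding. Against adult replicates 1 and 2, banding had FPKM ratios of 7.74 and 6.25 for Dcn and 3.87 and 3.52 for Bgn. Those of Lum (1.48 and 1.28), Aspn (1.09 and 0.836) and Prelp (1.23 and 1.09) did not reach the rule there. Ogn was lower in banding than in adult, at 0.23 and 0.191. The ratios against adult are in FPKM as deposited and were not recomputed under the other scalings. The scaling factors differ between these libraries, with upper-quartile factors of 0.656 for banding and 1.07 and 1.128 for adult, so which members reach the rule could change.

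Fibrillar collagens and their fibril partners, which include binding partners of these proteoglycans, were read by the same rule. Of 9 with 5 FPKM, 6 were higher in banding by size and 3 did not reach the rule, the most Col1a1 by 2.03 and Col1a2 by 1.45, with a median of 1.17 for the list, against none of 10 basement membrane partners of perlecan such as laminins, nidogens and collagen IV. The same counts held under both other scalings for the collagens, and 0 of 11 basement membrane genes passed there. Of 9 fibroblast markers 3 were higher (2 with median-of-ratios scaling), and their summed level over all 10 was 205 FPKM in sham and 274 in banding with none at 0. Of 2 cushion and valve markers with 5 FPKM, Postn was higher by 3.11 and 1 did not reach the rule. Under both other scalings 2 of 3 were higher. The sum of all 8 in that list, Postn included, was 14.1 in sham and 53.0 in banding. The sum of the macrophage and leukocyte markers was 14.9 and 18.3, and that of the cardiomyocyte markers 28900 and 25500. The part of these in the proteoglycan values was not tested.

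**Figure D3:**
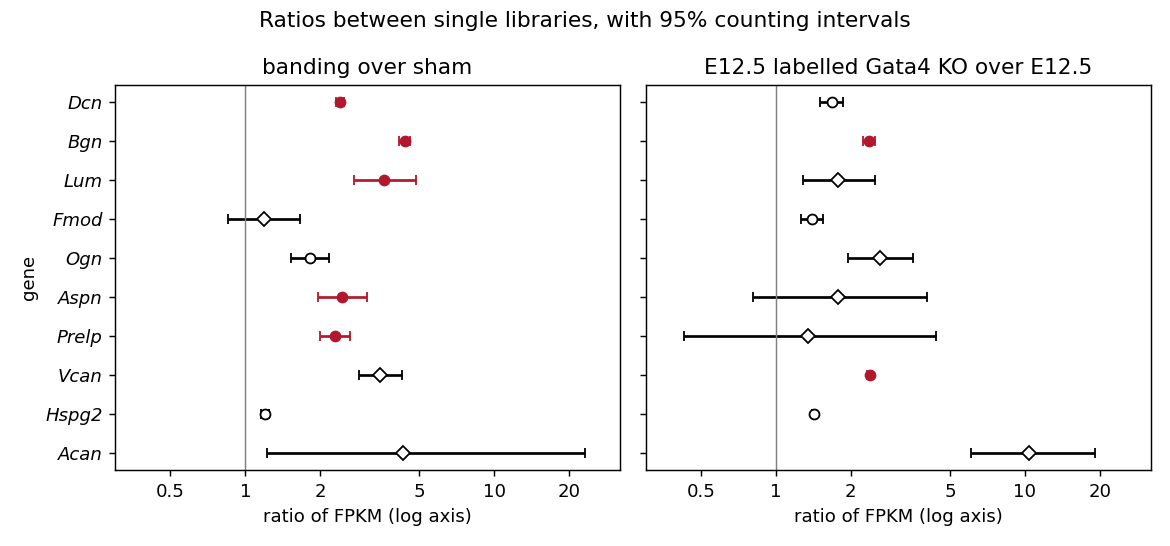
Ratios of FPKM on a log axis, banding over sham at left and the library labelled Gata4 KO over E12.5 at right, with exact 95% counting intervals. Red points were higher by the rule of size, open circles did not reach it, and diamonds had under 5 FPKM; Bgn lies at 4.36 at left and Acan at 10.4 at right.

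The library labelled Gata4 KO was set against E12.5, again with 1 library on each side. Of 5 members with 5 FPKM, 2 were higher by size, Vcan and Bgn, and none lower, where 1.36% of 8218 genes were higher and 0.742% lower. The value of every one of the 10 members was higher in the library labelled Gata4 KO, with a median of 0.63. The median was 0.71 for the 5 members with 5 FPKM and -0.05 over all genes at that level. No member changed sign under another scaling. Vcan had 21440 reads against 10630, a ratio of FPKM of 2.39 (95% counting interval 2.33 to 2.44). Bgn had 4152 against 2083 reads, a ratio of 2.36 (2.24 to 2.49). Dcn stood at 1.68 (1.51 to 1.86), Hspg2 at 1.42 (1.39 to 1.45) and Fmod at 1.4 (1.26 to 1.55), short of the rule. Gata4 was not lower in this library, but a level over the whole gene cannot show the loss of a floxed exon, and cells without Cre would keep the gene. Whether Gata4 was lost there was not tested, so no direction is read here as an effect of its loss.

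Acan differed the most in proportion, at a ratio of 10.4 (6.09 to 19.1) on 132 reads against 15, and it stayed under 5 FPKM. Ogn stood at 2.62 (1.94 to 3.55) and Lum at 1.78 (1.28 to 2.51), while the intervals of Aspn (0.808 to 4.04) and Prelp (0.428 to 4.38) span no difference. Several marker lists differed beside these values. The fibroblast sum was 107 FPKM in E12.5, with Dpt at 0, against 142 for the library labelled Gata4 KO. By size 1 of 6 fibroblast markers was higher (median 0.86), and 0 with median-of-ratios scaling. The epicardial sum was 118 and 171, with 0 of 7 higher by size (median 0.72). Of 10 fibrillar collagen and fibril genes 3 were higher (median 0.89), 2 with median-of-ratios and 4 with upper-quartile scaling. The sum of the primitive red cell markers was 21300 FPKM in E12.5, against 64700 for the library labelled Gata4 KO, that of smooth muscle and pericyte markers 548 and 1120, and that of cushion and valve markers 26.2 and 58.0, with none at 0 in those lists. By size 4 of 5, 2 of 5 and 1 of 2 of these were higher and none lower. The median level went only from 3.31 to 3.66 for smooth muscle and pericyte markers and from 1.46 to 1.60 for cushion and valve markers. The cardiomyocyte sum was 30800 and 20000, and that of the cartilage markers, relevant to Acan, 21.9 and 28.4, with Matn1 at 0 in both. Their part in the result was not tested.

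Sham against E12.5 shares its libraries with the comparisons above and is given for the values alone. Of 7 members with 5 FPKM, 3 were higher by size in sham and 2 lower, where 10.2% of 8544 genes were higher and 58.2% lower. Prelp and Ogn reached 5 FPKM in sham alone and Fmod and Vcan in E12.5 alone, so each could be called only as higher there. The genes higher or lower were 1980 and 2586 with median-of-ratios scaling and 2200 and 2397 with upper-quartile scaling, in place of 871 and 4976. The median over all genes with 5 FPKM went from -1.28 to -0.24 and -0.09. The members higher by size became 5 under each of these scalings, with Bgn at 1.71 and 1.82 in place of 0.71 and Aspn at 2.41 and 2.51 in place of 1.91, and Dcn went from 3.62 to 4.61 and 4.72. Prelp had a ratio of FPKM of 68.9 (33.0 to 173) on 277 and 7 reads, Dcn of 13.0 (12 to 14.1) and Ogn of 5.17 (3.90 to 6.95). Vcan was lower by a ratio of 46.9 and Fmod by 6.34. Hspg2 was lower by 1.84 as deposited and did not reach the rule, and its sign turned under both other scalings.

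The make-up of the group within a library does not depend on scaling between libraries, so each gene's share of the summed FPKM of the 10 was taken. The 7 small members made up 89.4% and 90.2% in adult, 90.3% in sham and 95.4% in banding, but 42.5% in E12.5, against 45.1% for the library labelled Gata4 KO. In the embryonic libraries Vcan held 23.8% and 29.6% and Hspg2 33.6% and 24.9%, and the order of these 2 was reversed between them: Hspg2 to Vcan was 1.41 in E12.5 (1.38 to 1.45) against 0.84 (0.824 to 0.856) for the library labelled Gata4 KO. Adult heart held Bgn (31.1% and 29.5%), Dcn (26.3% and 28.1%) and Ogn (20.3% and 21.1%) in like amounts. Sham and banding were dominated by Dcn, at 63.4% and 56.7%, with Ogn at 1.93% and 1.30%. The summed FPKM of the 10 was 170 in E12.5 and 248 and 288 in adult, 331 in sham and 891 in banding, and 327 in the library labelled Gata4 KO.

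**Figure D4:**
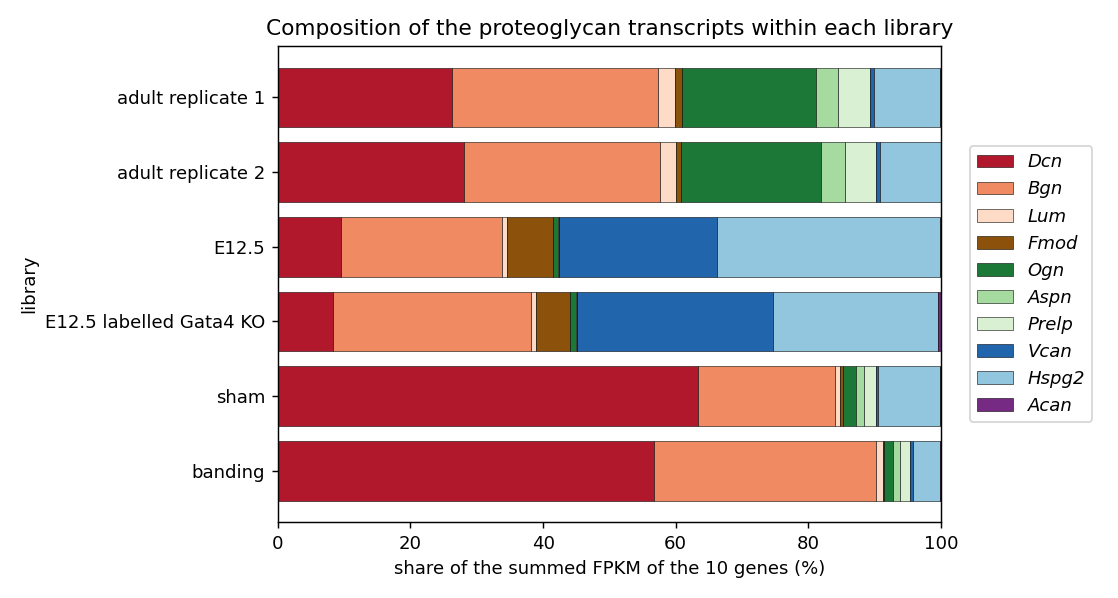
Each bar divides the summed FPKM of the 10 genes in a library into the share of each gene, in percent. Vcan and Hspg2 take 23.8% and 33.6% in E12.5, Ogn takes 20.3% and 21.1% in the adult ones, and Dcn takes 63.4% in sham and 56.7% in banding.

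Other genes of proteoglycan biology were read from lists for comparison. From E12.5 to adult, 5 of the 12 other small leucine-rich family genes listed were tested: 3 rose, the most Ecm2 by 2.84 and Podn by 1.70, and Tsku fell by 2.23. Ecm2 and Omd, the other family genes beside Aspn and Ogn on chromosome 13, were at 3.68 and 4.02 and at 1.44 and 1.60 in adult against 1.01 and 0.11 in E12.5. Of the proteoglycans held at the cell surface, 9 of 12 were lower in adult and none higher, the most Gpc3, a glypican, by -5.32 and Gpc2 by -3.19; under both other scalings 8 were lower and 1 higher. The median of that list was -1.51, against -0.51 over all genes. Of 12 fibrillar collagen and fibril genes 9 were lower in adult and none higher, with a median of -1.66. Under both other scalings 8 of these were lower and 1 higher. Of 5 hyaluronan and link protein genes 4 fell, among them Hapln1, the neighbour of Vcan, by 2.5, and Hyal1, a hyaluronidase, rose by 1.5; these counts held under both scalings.

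The enzymes that build the sugar chains were read by the chain they make. Of 15 heparan sulfate enzymes 12 were lower and 1 higher in adult as deposited, with 7 and 9 of 14 lower under the other scalings, and Sulf2, which trims heparan sulfate, fell by 2.67 (median of the list -0.97). Of 12 chondroitin and dermatan sulfate enzymes 8 fell (median -1.38), the most Chst12 by 2.37, and 2 rose, Csgalnact2 by 2.11 and Chst15 by 1.71. Among 6 keratan sulfate enzymes, which serve Lum and Fmod, 3 fell (2 with median-of-ratios scaling) and none rose, the most B3gnt7 by 1.91. In the supply of sulfate and sugar donors 9 of 13 were lower, whereas Papss2, which makes the sulfate donor, rose by 2.54. Of 9 proteases that cut proteoglycans 5 were lower, the most Mmp14 by -2.43, and Htra1 was higher by 2.15. The deposited shares stand beside the 48.4% of all genes that were lower as deposited. With median-of-ratios scaling 4413 of 12326 genes were lower, and with upper-quartile scaling 4841 of 12230. Under both, 7 of 11 chondroitin and dermatan sulfate enzymes were lower and 2 higher. So were 8 of 13 supply genes lower and 2 higher, and 4 of 9 proteases lower and 1 higher.

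In the library labelled Gata4 KO, 1 of 6 chondroitin and dermatan sulfate enzymes was higher by size, Chst12 by 1.11. So were 2 of 6 proteases, Htra1 by 1.34 and Mmp2 by 1.25, where 1.36% of all genes with 5 FPKM were higher. None of 9 heparan sulfate enzymes was called there, and among 11 cell-surface proteoglycans Gpc1 was lower, by -1.29. In banding against sham the rule called no heparan, keratan or linkage enzyme and no protease, on 1, 2, 2 and 5 genes with 5 FPKM. It called 2 of 5 other lecticans and secreted proteoglycans as higher, where 2.51% of all genes with 5 FPKM were higher. These were Prg4, the lubricant of joint and serosal surfaces, by 1.85 and Col15a1, a basement membrane collagen that carries chondroitin sulfate, by 1.32. None of 3 other small leucine-rich family genes was called, and their median was 0.21. In the TGF-beta pathway, whose ligands decorin and biglycan are known to bind, 1 of 6 was higher, Tgfb2 by 1.15.

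For each member the genes nearest in pattern were sought among the 9398 genes that reached 5 FPKM in any library, by the root mean square distance of centred log2(FPKM + 1) over the 6 libraries. Fmod lay 0.08 from Cdon, Sepn1 and Mgst1, and Hspg2 0.09 from Shisa5. Prelp lay 0.17 from C1s, a complement protease, 0.19 from Ifi203 and 0.24 from Dnajb6, and Aspn 0.22 from Csdc2 and 0.23 from Aoc3. Bgn lay 0.23 from Serpinf1 and 0.32 from Adamts2, which trims procollagen. Lum was nearest to Zfp651 at 0.25 and Anxa1 at 0.26, and Dcn to Itgbl1 at 0.38 and Apod at 0.39. Ogn was nearest to Ckm, muscle creatine kinase, at 0.32, and Vcan to Cnn2 at 0.32 and Spon2 at 0.33. Acan lay 0.11 from Fat4. Among the members, Aspn and Prelp lay 0.39 apart, with Prelp 54th nearest to Aspn and Aspn 36th nearest to Prelp. Acan and Hspg2 also lay 0.39 apart, but Hspg2 was only 906th nearest to Acan. The distance is not scaled for span, so a gene that varies little, such as Acan, lies close to many others that vary little. The farthest pair was Vcan and Prelp at 3.80.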

How the data were processed

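The deposited files give, for each of 23284 gene symbols, a level that the authors put on a log2 scale, log2(FPKM + 1), as read from the values. The submitters' processing notes name CASAVA 1.8.2, TopHat 1.4, HTSeq 0.5.3, BWA 0.5.9, MACS 1.4 and the build mm9, without saying which made these files. FPKM divides by all mapped reads. Undoing the log gave whole reads for 100% of 98043 values above 0 (within 0.0001 of a read), and these were used for ratios of single libraries and their exact conditional binomial 95% intervals.

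Adult was tested against E12.5, and sham against adult, with limma 3.58.1 in R 4.3.3 (mean-variance trend, Benjamini-Hochberg over all genes with at least 1 FPKM in 1 library fitted, threshold 0.05). With 1 residual degree of freedom, the spread is that between both adult libraries, and the lone library was assumed to vary like it. Pairs of single libraries were compared by a rule of size, a difference of at least 1 in log2(FPKM + 1) with at least 5 FPKM in the higher library. The read recovery and limma were tested on simulated data. All 230 entries of 21 gene lists matched a symbol. The value of 1 red cell marker is not reported here. The 10 members were all described; from each other list up to 4 genes were named per comparison, the 2 largest differences in each direction among those called, and Cenpp and Omd were added as neighbours. The members and lists were chosen with earlier results of these data known. Other pseudocounts, filters, scalings and sample sets were tried. The genome table GRCm38.p6 served for names, gene order and promoter sequences only, since the files use mm9.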

Additional observations from a re-analysis of the deposited data

How the results depend on the processing

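Limma or the rule of size was applied to 274 recomputed values of single members. Of these, 246 kept direction and side of the threshold, 12 lost and 8 gained a call, and 8 changed sign. The 246 include members under 5 FPKM, such as Acan, which the rule at 5 FPKM could not call, so for these no change of call was possible there. Sign changes in sham against adult were Bgn, 0.27 (median-of-ratios scaling), 0.52 (upper-quartile scaling) and 0.82 (banding added as an operated library), Fmod, 0.17 and 0.35 under these scalings, and Vcan, 0.08 with banding added. In sham against E12.5 Hspg2 became 0.14 and 0.25 under the scalings. The cause was not tested. Leaving out either adult library gave 36 values with no test, and no sign changed. Members called in sham against adult numbered 1 with no filter and 2 with banding added; members higher 0 with no filter, 2 and 3 under the scalings; members lower 1 with no filter, with upper-quartile scaling and with banding added. All genes higher there were 898 with at least 5 FPKM, 3157 and 4179 under the scalings, and all genes lower 3162 with no filter, 3291 and 2541. In sham against E12.5, members higher were 5 under each scaling, all genes higher 1457 with at least 1 FPKM, 1980 and 2200 under the scalings, and lower 2586 and 2397. With at least 1 FPKM, 105 genes were lower in the library labelled Gata4 KO, and 200 higher and 107 lower in banding; 83 were lower in banding by a ratio of 2, and 84 and 85 under the scalings. No paired analysis was possible because only the adult group has more than 1 RNA-seq library. Reads under about 20, as for Aspn and Prelp in both embryonic libraries and Acan in E12.5, leave wide intervals.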
